A study of Mus musculus with 6 samples.

Results

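The immediate early genes followed here across cell clusters of dissociated mouse sciatic nerve were Fos, Fosb, Jun, Junb, Jund, Egr1, Atf3, Ier2, Btg2 and Nr4a1. The genes were chosen by name, and all 10 were found among the 32285 genes of the deposited count table. The study asked how diet changes Schwann cells, the glia of peripheral nerve, in C57BL6/J mice, 23 weeks old, on SD (standard diet) or HFD (high fat diet), with no other allele or agent in the labels. Nerves were digested with trypsin and collagenase II, and cells bound by beads to O4, an antigen on the surface of Schwann cells, were taken for droplet-based 3′ single-cell RNA sequencing. The table held 364 cells, 201 from 3 SD libraries and 163 from 2 HFD libraries. The third HFD replicate was not analysed here. All cells of both diets went through the same digestion, and no undissociated nerve was among the 6 labelled samples, so RNA present in the nerve and RNA made during dissociation cannot be told apart.

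Immediate early genes are transcribed within minutes of a stimulus from factors already present in the cell, without new protein synthesis. Growth factor and stress signals reach their promoters through mitogen-activated kinases acting on ternary complex factors and serum response factor, and through CREB at cyclic AMP response elements. Fos and Jun proteins pair as the AP-1 transcription factor. Jun is also known as a factor that drives the repair state of Schwann cells after nerve injury, and warm enzymatic digestion is known to induce many of these genes in freshly isolated cells.

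Promoter sequences are shown for 4 members that the results turn on: Fos, high in every cluster of good depth, Btg2, with a complete cyclic AMP response element, Atf3, high in 1 cluster, and Jun, the repair marker. Each is the 250 bases upstream of the RefSeq start in GRCm38.p6, 5′ to 3′ on the gene's strand, at chr12:85473640-85473889 for Fos, chr1:134079156-134079405 for Btg2, chr1:191183334-191183583 for Atf3 and chr4:95052223-95052472 for Jun. Capitals mark a match on either strand to TGACGTCA (the full element), to TGACG (its first letters, so each full element also holds it) or to TATAAA.
Fos: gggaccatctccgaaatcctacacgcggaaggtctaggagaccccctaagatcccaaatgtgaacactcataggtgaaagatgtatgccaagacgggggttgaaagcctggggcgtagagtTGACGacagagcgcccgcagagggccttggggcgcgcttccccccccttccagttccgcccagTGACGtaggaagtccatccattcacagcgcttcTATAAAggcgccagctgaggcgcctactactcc
Btg2: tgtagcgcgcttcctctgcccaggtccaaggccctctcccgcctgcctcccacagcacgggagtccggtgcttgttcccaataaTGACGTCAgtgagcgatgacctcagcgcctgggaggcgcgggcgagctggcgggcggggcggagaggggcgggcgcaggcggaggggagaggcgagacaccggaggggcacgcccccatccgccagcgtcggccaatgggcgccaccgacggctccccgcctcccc
Atf3: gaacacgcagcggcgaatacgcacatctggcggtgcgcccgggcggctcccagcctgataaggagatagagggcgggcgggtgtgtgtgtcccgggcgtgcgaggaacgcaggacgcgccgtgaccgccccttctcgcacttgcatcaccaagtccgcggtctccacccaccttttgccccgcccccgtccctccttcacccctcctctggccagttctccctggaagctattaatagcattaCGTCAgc
Jun: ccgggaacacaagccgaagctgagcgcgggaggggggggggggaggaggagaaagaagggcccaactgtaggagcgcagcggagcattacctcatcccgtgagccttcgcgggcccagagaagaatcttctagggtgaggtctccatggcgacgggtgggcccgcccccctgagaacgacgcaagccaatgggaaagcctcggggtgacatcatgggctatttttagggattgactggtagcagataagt
The Fos window held TGACG at 129 and at 66 bases before the start and TATAAA at 33. Btg2 held TGACGTCA 166 bases before the start, and Atf3 held TGACG 7 bases before it. The Jun window matched none of these letters, nor the AP-1 letters TGANTCA or the CArG box of serum response factor, which says only that the letters are not in these 250 bases. Of 32851 promoter windows of the same length, 17.8% held TGACG, 12.4% TATAAA, 6.75% TGANTCA, 1.55% TGACGTCA and 1.47% a CArG box. Windows were at hand for 8 of the 10 members, and Nr4a1 held TGACG 4 times, Fosb and Junb once each.

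Depth differed between libraries and clusters. Total UMI counts (distinct RNA molecules) ranged from 37744 to 349450 per library. Levels are given as CPM, the UMIs of a gene over all UMIs of the same cells, scaled to 1e6, and since 3′ counting gives 1 count per molecule, no division by length was made. The authors' 5 clusters were numbered and named in the deposited table: 0 Macrophages (143 cells, median 1064 UMIs per cell), 1 mySC (92 cells, 626.5), 2 SCP (60 cells, 4230.0), 3 repairSC (45 cells, 261) and 4 nmSC (24 cells, 2693). Macrophage markers were at 43725 ± 6007 CPM in cluster 0 (± is the standard deviation between libraries throughout, unless called a standard error). Genes of myelinating Schwann cells were highest in cluster 2, at 51785 ± 10459 CPM, and reached 34142 ± 27646 in cluster 1. Fibroblast genes were at 41525 ± 21863 CPM in cluster 4, where the Schwann lineage list (Sox10, S100b and others) was at 212 ± 153. Cluster 3 had 0 UMIs of the Schwann lineage list in the 3 libraries with at least 3 of its cells. Of the nonmyelinating Schwann list, Chl1 alone made up 98.0% of the UMIs in cluster 3 and Apod, which fibroblasts also express, 94.4% in cluster 4. The defining Schwann lineage genes were thus near 0 in 2 clusters named as Schwann cells, and clusters are called by number. No cell barcode was shared between libraries.

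The 10 genes together took 22603 UMIs, and their mean level over libraries was highest in the macrophages of cluster 0. Summed over the 10 genes, cluster 0 was at 30488 ± 4256 CPM (n = 5 libraries, 24979 to 35460.1), cluster 4 at 20198 ± 11275 (n = 4), cluster 2 at 8794 ± 2583 (n = 5) and cluster 1 at 7737 ± 2654 (n = 5). The lowest library of cluster 0 lay above the highest of cluster 2 (13158 CPM) and of cluster 1 (11666 CPM). Cluster 4 spanned 7827 to 32007 and overlapped the ranges of clusters 0, 1 and 2. In HFD replicate 2 cluster 4 was above cluster 0 (32007 against 31294 CPM). It was below cluster 0 in HFD replicate 1 (27139 against 27463) and in SD replicates 1 and 2. Within libraries, 8 of the 10 genes were higher in cluster 0 than in cluster 2 in all 5 libraries, against 18.2% of the 2683 genes measured in that pair, and 0 were lower in all 5, against 23.6%. The median log2 ratio of the members was 1.87, and that of all genes −0.11 (log2 ratios carry 1 UMI added to each count, and counts of libraries do not). The clusters were made from these same counts, so no test is given between clusters.

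**Figure D1:**
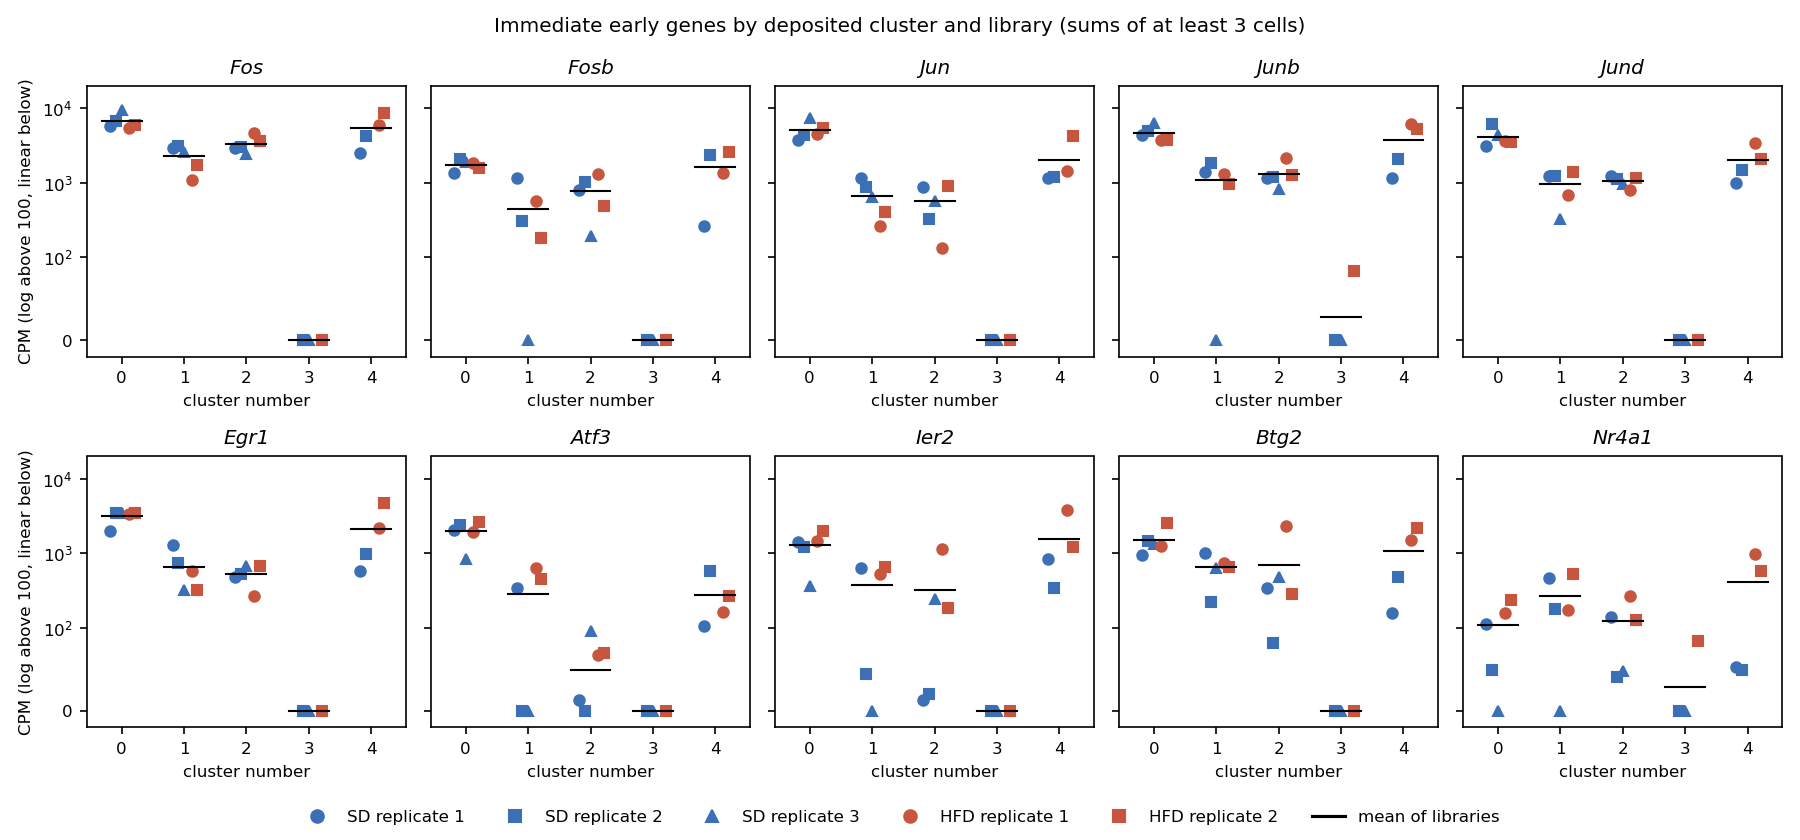
Level of each of the 10 genes in each cluster, 1 point per library with at least 3 cells, in CPM on a log axis that also marks 0. Fos has the highest mean in each of clusters 0, 1, 2 and 4, and Atf3 separates cluster 0 from the others most clearly.

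Fos, the partner of Jun proteins in AP-1 (chr12:85473890-85477273 in GRCm38 with GENCODE vM21, as for the genes below, plus strand, 4 exons), had the highest mean level of the members in clusters 0, 1, 2 and 4. In cluster 0 it stood at 5749.85, 6847 and 9408 CPM in SD replicates 1 to 3 and at 5499 and 6049 in the 2 HFD libraries. Cluster 2, the myelin-rich Schwann cells, gave 2947, 3065 and 2410.34 CPM for SD and 4675 and 3649.89 for HFD. Every library of cluster 0 stood above every library of cluster 2, by 2.00-fold on average within libraries (log2 1.00 ± 0.64, n = 5). This was the smallest ratio among the 8 members that were higher in all 5 libraries. Fosb, a paralog of Fos (chr7:19302696-19310051, minus strand, 4 exons), was at 1764 ± 299 CPM in cluster 0, 1625 ± 1053 in cluster 4 and 775 ± 448 in cluster 2, and neighbouring clusters in that order overlapped.

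The 3 Jun genes each have a single exon and differed in how strongly they marked cluster 0. Jun (chr4:95049034-95052222, minus strand) was at 3805 CPM in SD replicate 1, 4397 in SD replicate 2, 7357 in SD replicate 3, 4564.5 in HFD replicate 1 and 5456 in HFD replicate 2 in cluster 0. Its values in cluster 2, in the same order of libraries, were 884, 327, 578, 134 and 909.593 CPM. The 2 groups did not overlap, and the ratio within libraries was 9.73-fold (log2 3.28 ± 0.96, n = 5). Jun was also higher in cluster 0 than in cluster 4 in 4 of 4 libraries (log2 1.36 ± 0.68), as were 31.0% of 1949 genes. The overall ranges of Jun in those clusters overlapped. Junb (chr8:84974484-84978718, minus strand) stood at 4675 ± 1095 CPM in cluster 0, 3715 ± 2476 in cluster 4, 1319 ± 490 in cluster 2 and 1105 ± 692 in cluster 1. Jund (chr8:70698949-70700616, plus strand), the family member known for steady expression, stood at 4158 ± 1242 CPM in cluster 0 and at 2001 ± 1043, 1059 ± 176 and 977 ± 453 in clusters 4, 2 and 1. Jun, Junb, Jund and Atf3 overlap a gene or RNA on the opposite strand in GENCODE vM21 (Junb overlaps Prdx2). Strand use in the counting is not given in the sources used here. Whether any reads of those partners entered the counts was not tested.

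Egr1, a zinc finger factor that answers growth factor signals, followed Jun in being concentrated in clusters 0 and 4. SD replicate 1 had 1986 CPM of it in cluster 0, and the other 4 libraries 3393 to 3498. In cluster 2 it lay between 267 and 675 CPM, with no overlap, a log2 ratio of 2.54 ± 0.51 (n = 5). Of the 9 members measured in clusters 4 and 2, 3 were higher in cluster 4 in all 4 libraries (Jun, Egr1 and Ier2; 17.2% of 1217 genes) and 0 lower (31.6%). Cluster 4 spanned 574 to 4688 CPM of Egr1 and overlapped every other cluster except cluster 3.

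Atf3, a stress-induced member of the ATF/CREB family (chr1:191170296-191218039, minus strand, 4 exons), was the member most restricted to cluster 0, which held 90.1% of its 1399 UMIs. Cluster 0 gave 2035 CPM in SD replicate 1, 2434 in SD replicate 2, 844 in SD replicate 3, 1936 in HFD replicate 1 and 2607 in HFD replicate 2. The values in cluster 2 were 12.8, 0, 96.4, 66.8 and 69.1 CPM in the same order, and the 0 of SD replicate 2 allows up to 61.3 CPM (3 UMIs). Each library of cluster 0 was above all libraries of clusters 1, 2 and 4, and the ratio to cluster 2 was 31.3-fold (log2 4.97 ± 1.72, n = 5, with 1 UMI added to each count). Against cluster 4 it was 8.03-fold (log2 3.01 ± 0.75, n = 4), and Jun, Jund and Atf3 were the 3 of 10 members higher in cluster 0 than in cluster 4 in every library, against 31.0% of 1949 genes, while 0 were lower (10.2%). Between clusters 2 and 1, 0 members were higher in every library (28.5% of 1397 genes) and 0 lower (2.36%).

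Ier2 and Btg2 were less regular, and Nr4a1 did not share the pattern. Ier2, a short-lived nuclear regulator (chr8:84661331-84662852, minus strand, 1 exon), was highest in cluster 4 (1552 ± 1553 CPM) and cluster 0 (1301 ± 599.822), and lay at 376 ± 327 in cluster 1 and 319 ± 467 in cluster 2. Btg2, an antiproliferative gene (chr1:134075170-134079120, minus strand, 2 exons), was at 1511 ± 632 CPM in cluster 0, and higher there than in cluster 2 in 4 of 5 libraries. Nr4a1, an orphan nuclear receptor (chr15:101254269-101274795, plus strand, 7 exons), had 247 UMIs in all. Its levels were 412 ± 449 CPM in cluster 4, 268 ± 219 in cluster 1, 125 ± 91.4 in cluster 2 and 110.2 ± 91.6 in cluster 0, with all neighbours overlapping. Nr4a1 was lower in cluster 0 than in cluster 1 in 4 of 5 libraries and had 0 UMIs in both in SD replicate 3 (log2 −1.33 ± 0.69 with 1 UMI added), where 8 other members were higher in 5 of 5. Of the 2054 genes of that pair, 19.3% were higher and 3.16% lower in every library. Neutrophil-like cells (S100a8 and S100a9 over 1% of UMIs, 5 cells) held 12.6% of the Nr4a1 UMIs.

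Detection per cell was compared at a matched depth. Each cell was taken down to 500 UMIs by expectation, which left out 28 cells of cluster 0, 5 of cluster 4, 2 of cluster 2 and 33 of cluster 1. At that depth Fos was expected in 66.0% of cells of cluster 0, 68.0% of cluster 4, 40.3% of cluster 2 and 22.8% of cluster 1. These shares pool the libraries. In cluster 4 Fos ran from 29.6% in SD replicate 1 (5 cells) to 94.2% in HFD replicate 1 (4 cells). As deposited, 97 of 143 cells of cluster 0 had a Fos UMI (67.8%, exact 95% binomial interval 59.5 to 75.4%, which covers counting error only). Jun stood at 61.0%, 47.0%, 22.4% and 10.0% of cells in clusters 0, 4, 2 and 1. Jund stood at 63.3% in cluster 0 and 34.2% in cluster 2, and 75.0% of the cells of cluster 2 had a Jund UMI before thinning. Atf3 was expected in 44.8% of cells of cluster 0, 7.51% of cluster 4, 6.56% of cluster 1 and 1.92% of cluster 2. In cluster 2, 4 of 60 cells (6.67%) had an Atf3 UMI as deposited.

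**Figure D2:**
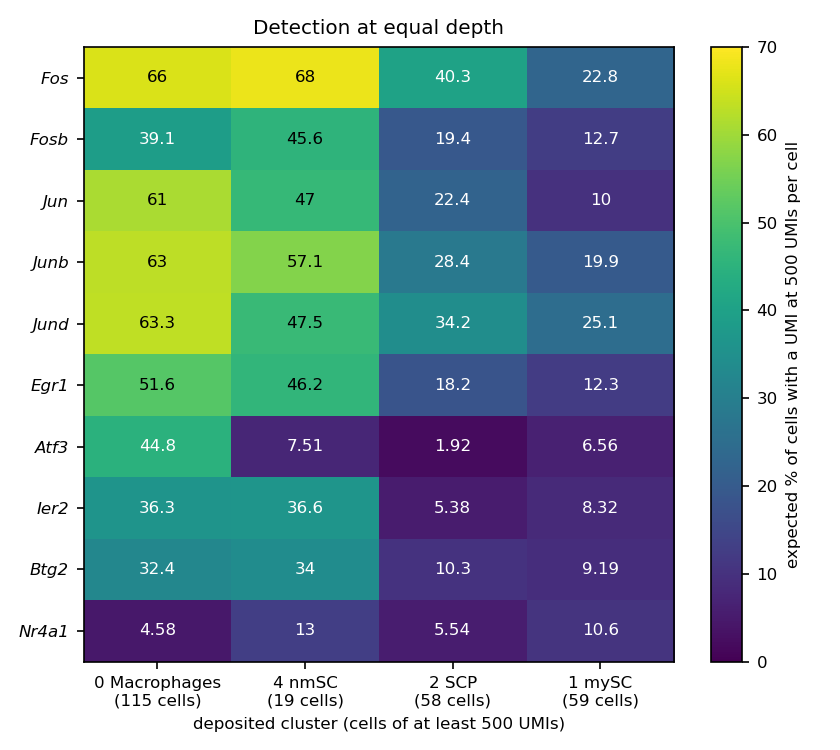
Expected percent of cells with at least 1 UMI of each gene after thinning to 500 UMIs per cell, by cluster. Pooled over libraries, clusters 0 and 4 lie together for Fos (66.0% and 68.0%) and apart for Atf3 (44.8% and 7.51%). Single libraries of cluster 4 ran from 29.6% to 94.2% for Fos.

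RNA free in the suspension can put a few UMIs of a gene into other cells, and this was looked at with macrophage and myelin genes. C1qa, a complement gene of macrophages, had a UMI in 76.2% of cells of cluster 0 and in 3.33% of cluster 2 (0.328% thinned). The summed macrophage markers of cluster 2 were at 106 ± 45.9 CPM. If the members had come into cluster 2 with macrophage RNA at the ratio found in cluster 0 of the same library, Fos would have been at 15.4 CPM on average, Jun at 11.6 and Atf3 at 5.19. The measured means of 3349, 567 and 49.0 CPM were higher, in 5, 5 and 4 of 5 libraries. This estimate covers macrophage RNA only, and not RNA of other cells such as those of cluster 4 (Fos at 5401 CPM). The part of free RNA in the levels of cluster 2 was not tested. After thinning, Atf3 was expected in 1.92% of cells of cluster 2, and the myelin gene Mbp in 1.68% of cells of cluster 0. Spill of a gene depends on its own level, so the Mbp share sets no floor for Atf3. Atf3 had 10 UMIs in 4 cells of cluster 2, 6 of them in 1 cell. Whether they were carried or made there was not tested.

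Members were shared unevenly, and the mix of the 10 genes differed between macrophages and myelin-rich Schwann cells. Of the members' UMIs in cluster 2, Fos made up 38.4 ± 2.72% (35.5 to 41.3% over 5 libraries), against 21.9 ± 2.94% in cluster 0 (19.3 to 26.5%), without overlap. Jun made up 7.12 ± 4.27% in cluster 2 (at most 11.0%) and 16.7 ± 2.79% in cluster 0 (at least 13.2%), again without overlap. Atf3 took 0.586 ± 0.586% against 6.65 ± 2.44%. Junb took a like share in both, 14.8 ± 1.52% and 15.3 ± 2.61%.

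Single cells varied widely within a cluster. Among cells with at least 2000 UMIs, those of cluster 0 had a median of 9 of the 10 genes (63 cells) and those of cluster 2 a median of 3.5 (54 cells). The members took under 0.2% of UMIs in 25 of those 54 cells of cluster 2 (46.3%) and over 1% in 15 (27.8%). In cluster 0 the counts were 6 of 63 (9.52%) and 53 (84.1%). The Schwann cells of cluster 2 thus ranged from cells with 0 member UMIs to 1 with 3.51% of its UMIs from these genes. Both ends were found in all 5 libraries: cells under 0.2% were present in all 5 libraries of cluster 2 and made up 33.3 to 62.5% of each, and cells over 1% were present in all 5 as well. In cluster 0, 19 of 143 cells held 50% of the members' UMIs, and in cluster 2, 7 of 60.

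**Figure D3:**
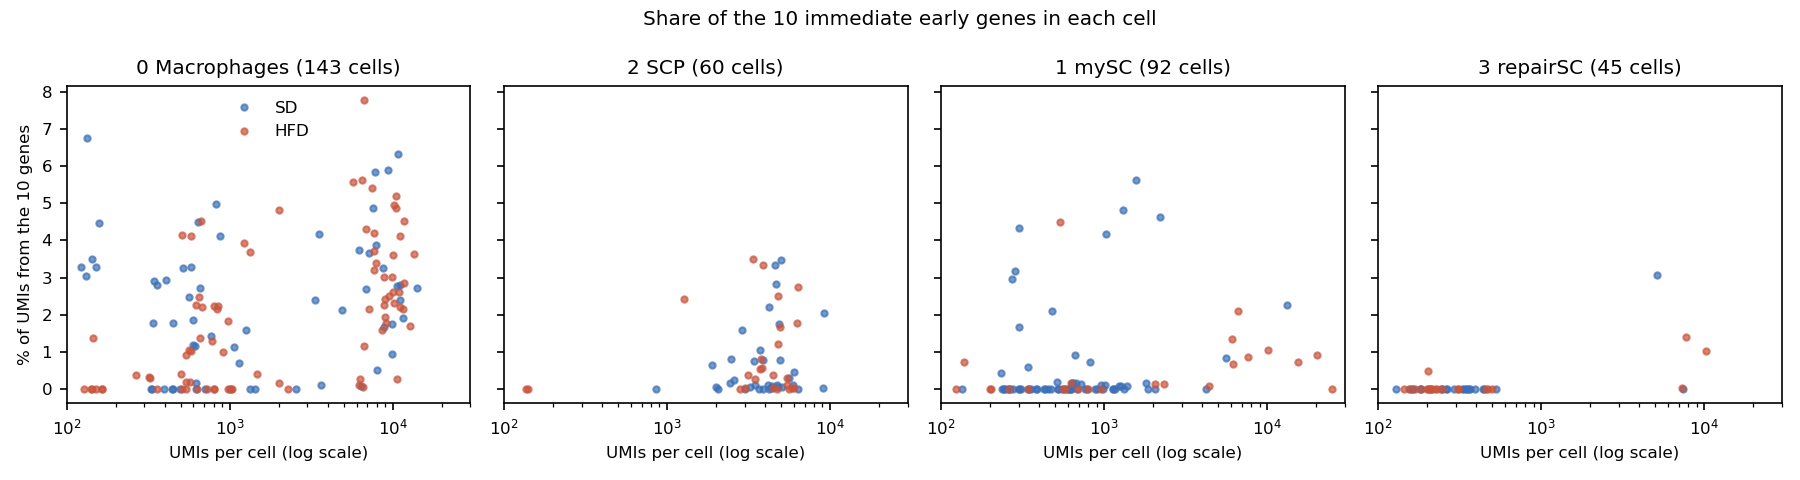
Percent of each cell's UMIs from the 10 genes against its total UMIs (log axis), 1 point per cell, by cluster. Cluster 0 cells above 2000 UMIs mostly lie over 1%, and those of cluster 2 spread from 0 to 3.51%.

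Depth moved with these levels in cluster 0. Cells with under 1000 UMIs had lower summed member levels than deeper cells in 5 of 5 libraries, for example 12438 against 28087 CPM in HFD replicate 1 and 22168 against 25086 in SD replicate 1. The part of depth in the members' levels was not tested.

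Within a cluster, cells high in 1 member tended to be high in others. Over cells of at least 2000 UMIs, the mean Spearman correlation of CPM was positive for 44 of 45 member pairs in cluster 0 (median 0.56, averaged over 3 libraries of 15 to 24 cells) and for 45 of 45 in cluster 2 (median 0.51, 2 libraries of 18 and 19 cells). The closest pair was Fos and Jund in cluster 0 (0.84) and Fos and Egr1 in cluster 2 (0.84). Cells of a library share their depth range and their digestion, so these values are a description and carry no p. Pairs of other genes were not measured in this way, so how common a positive value is among them is not known here.

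Likeness in level was measured across the 20 sums of library and cluster with at least 5000 UMIs, ranking only genes that were not members. Members were often closer to each other, such as Junb to Fos (Spearman rho 0.94). Of the others, Zfp36, an RNA decay factor and itself an immediate early gene, was the closest of 1130 genes to Junb (0.81), Ier2 (0.87) and Btg2 (0.84). Fosb was closest to Klf4 (0.87), Atf3 to Cyba, a subunit of the phagocyte oxidase (0.89), and Nr4a1 to Clic4 (0.78). The sums share cell type and depth, so no p is given.

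Most member UMIs of cluster 1 lay in a few cells carrying markers of other cell types. Of its 92 cells, 13 had over 1% of UMIs from macrophage, neutrophil or mast cell markers, or over 5% from haemoglobin genes, limits set after the data were seen. They held 79.7% of the cluster's member UMIs, with 77 of its 78 Atf3 UMIs, 92 of 94 Ier2 UMIs and 123 of 130 Btg2 UMIs. The 70 cells with myelin genes over 1% and none of those markers were at 4219 CPM for the 10 genes, with Fos at 1394 CPM, Junb at 869 and Atf3 at 18.1 (1 UMI). These 70 cells had a median of 554 UMIs. The corresponding 58 cells of cluster 2, at a median of 4230.0 UMIs, were at 8501 CPM.

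Jun as a repair Schwann marker was examined against 14 other markers of that state (Shh, Gdnf, Olig1, Bdnf, Runx2, Sox2, Gap43 and others). Jun had 2690 UMIs in cluster 0, 209 in cluster 4, 178 in cluster 2, 108 in cluster 1 and 23 in cluster 3, which the authors named repairSC. In the 3 libraries with at least 3 cells of cluster 3, Jun had 0 UMIs. Its 23 UMIs came from 3 cells of the remaining libraries: 17 from 1 cell of SD replicate 1 that also held 104 UMIs of macrophage markers, and 4 and 2 from 2 neutrophil-like cells of HFD replicate 1. Runx2 was the only other repair marker of more than 1 UMI in cluster 3 (15 UMIs in 5 cells), and Bdnf had 1. The whole list reached 203 ± 183 CPM in cluster 3 (n = 3) and 5124 ± 1381 CPM in the macrophages of cluster 0, where Jun was nearly all of it.

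Cluster 3 was also shallow. Its median cell had 261 UMIs, and 36 of its 45 barcodes ended in the same 9 bases, which no cell of another cluster did. Those 36 cells held 9961 UMIs together, with 1 UMI of Nr4a1 and 0 of the other members. The other 9 cells held 370 member UMIs, in 4 of them. A count of 0 at this depth allows a Jun level of up to 301 CPM (3 UMIs), which is below the cluster 2 mean of 567 CPM and within that cluster's range over libraries (134 to 909.593).

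In the Schwann cells of cluster 2, Jun stood with few other repair markers. Mcam had 14 UMIs there, Hbegf 9, Sox2 9, Runx2 5 and Artn 1, against 178 for Jun in 33 of 60 cells. Gdnf, Olig1, Btc and Gap43 had 0 UMIs in every cluster. Over all cells Jun made up 97.3% of the list's 3297 UMIs, and the other markers were too sparse to compare with it from cell to cell.

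**Figure D4:**
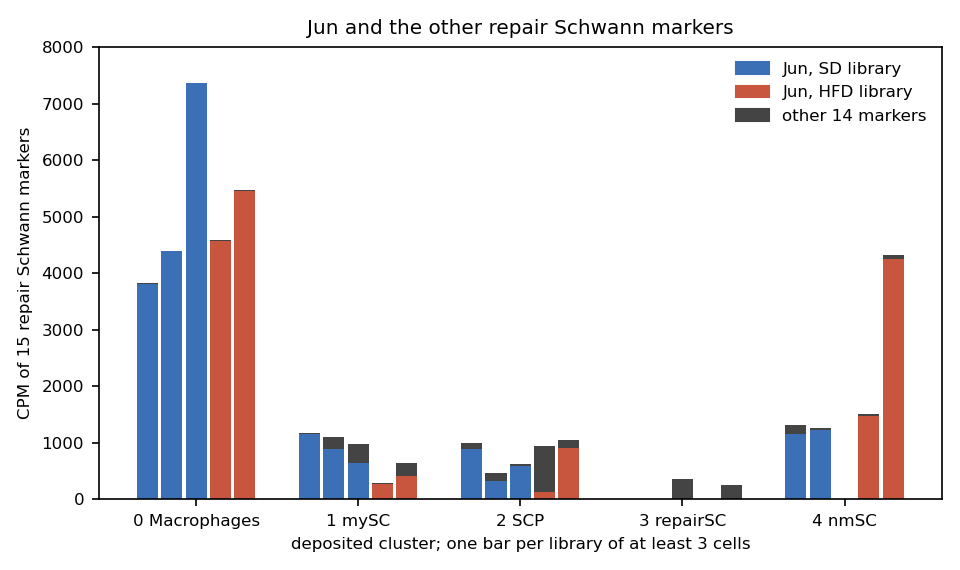
Summed level of the 15 repair Schwann markers in each cluster and library with at least 3 cells, in CPM, with Jun and the other 14 markers drawn apart. Jun makes up nearly all of the bars in cluster 0, and the bars of cluster 3 hold none of it.

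Dissociation was approached through 2 more lists. Of 35 other immediate early genes, Zfp36 (3108 ± 303 CPM), Dusp1, a phosphatase of mitogen-activated kinases (2866 ± 549), and Klf2 (2891 ± 1168), a zinc finger factor, led in cluster 0. The list was at 17793 ± 2062 CPM in cluster 0, 7929 ± 1898 in cluster 4, 5737 ± 3871 in cluster 1 and 3918 ± 1288 in cluster 2, the order of the members themselves except that clusters 1 and 2 changed places. The 12 heat shock genes of the other list respond to warmth and protein damage. Their sum was 2218 ± 395 CPM in cluster 0, 2342 ± 491 in cluster 4 and 1722 ± 355 in cluster 2, and the ranges overlapped. Hspa8 was higher in cluster 0 (857 ± 136) than in cluster 2 (352 ± 119), and Hsp90ab1 was at 509 ± 162 and 658 ± 225. Hspa1a, the inducible chaperone, was at 220 ± 205 CPM in cluster 0, from 132 UMIs in 21 cells, and at 18.9 ± 21.1 in cluster 2. The 23 kinases and factors upstream of the members (Srf, Elk1, Creb1 and others) summed to 1112 ± 284 CPM in cluster 0 and 1385 ± 432 in cluster 2, and the ranges overlapped. How much of any member's level arose during digestion was not tested, since all libraries shared it.

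Between diets, no member passed the threshold over all cells. All 10 were higher in HFD, with a median log2 fold change of 0.80 against 0.02 for all genes, but edgeR's quasi-likelihood test called 0 of 10 at a Benjamini-Hochberg adjusted p of 0.05 (0.0907% of 5510 genes were called), and 4 had an unadjusted p under 0.05 (4.39% of genes). On the scale of that fit, 7 members did not overlap between diets, all higher in HFD (14.3% of genes were higher and 9.44% lower in that way). Nothing in the labels says that the samples came from separate mice, so a p-value here weighs only sample-to-sample spread, and that spread may be technical.

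Btg2 and Nr4a1 had the clearest separation. Btg2 was at 708, 699 and 609 CPM on SD and at 1262 and 1560.05 on HFD (edgeR log2 1.23, standard error 0.40, adjusted p = 0.943). Nr4a1 was at 162, 65 and 26 CPM against 292 and 271 (log2 1.68, standard error 0.61, adjusted p = 0.943). Both HFD libraries lay above all SD libraries for these genes. Neutrophil-like cells held 12.6% of the Nr4a1 UMIs and 6.97% of the Btg2 UMIs. Those cells were found only on HFD, 4 in replicate 1 and 1 in replicate 2. Jun was at 2374, 2148 and 1987 CPM against 3099 and 3196 (log2 0.72, standard error 0.36, adjusted p = 0.943), without overlap either. Fos was at 4369, 4724 and 3603 CPM against 4424 and 4828, which overlapped in CPM though not on the scale of the fit (log2 0.30, standard error 0.34, adjusted p = 0.954). Libraries were also grouped by a number in the library key, called run 1 and run 2 here. Nothing in the sources used here says that these were sequencing runs. Within each run, every member was higher in HFD, except Fos in run 1 (log2 −0.04).

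The cell mix differed between libraries in these sums. Cluster 0, where the members' summed level was highest on average, gave 64.0% and 45.7% of UMIs on HFD and 48.4%, 39.9% and 22.0% on SD, so the diets overlapped. In sums over all cells, more cells of a type and more RNA per cell cannot be told apart. With clusters 0, 1 and 2 weighted equally, Fos, Jun, Jund and Egr1 were lower in HFD by 0.27, 0.67, 0.06 and 0.27 on the log2(CPM + 10) scale, and the other 6 were higher, Ier2 by 2.38 and Atf3 by 1.99. Few cells carry these 2 genes in clusters 1 and 2. In cluster 1, 77 of 78 Atf3 UMIs and 92 of 94 Ier2 UMIs lay in the 13 cells with markers of other cell types. In cluster 2, all 17 Ier2 UMIs of HFD replicate 1 lay in 1 cell. The exact two-sided permutation p was 0.2, unadjusted, for the 5 of 10 genes tested that did not overlap between diets. Fos and Egr1 were the lower ones in HFD, and Atf3, Ier2 and Btg2 the higher ones. A p of 0.2 is the smallest that 3 against 2 libraries can give. The share without overlap was not worked out over all genes on this scale, so the count of 5 has no baseline.

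**Figure D5:**
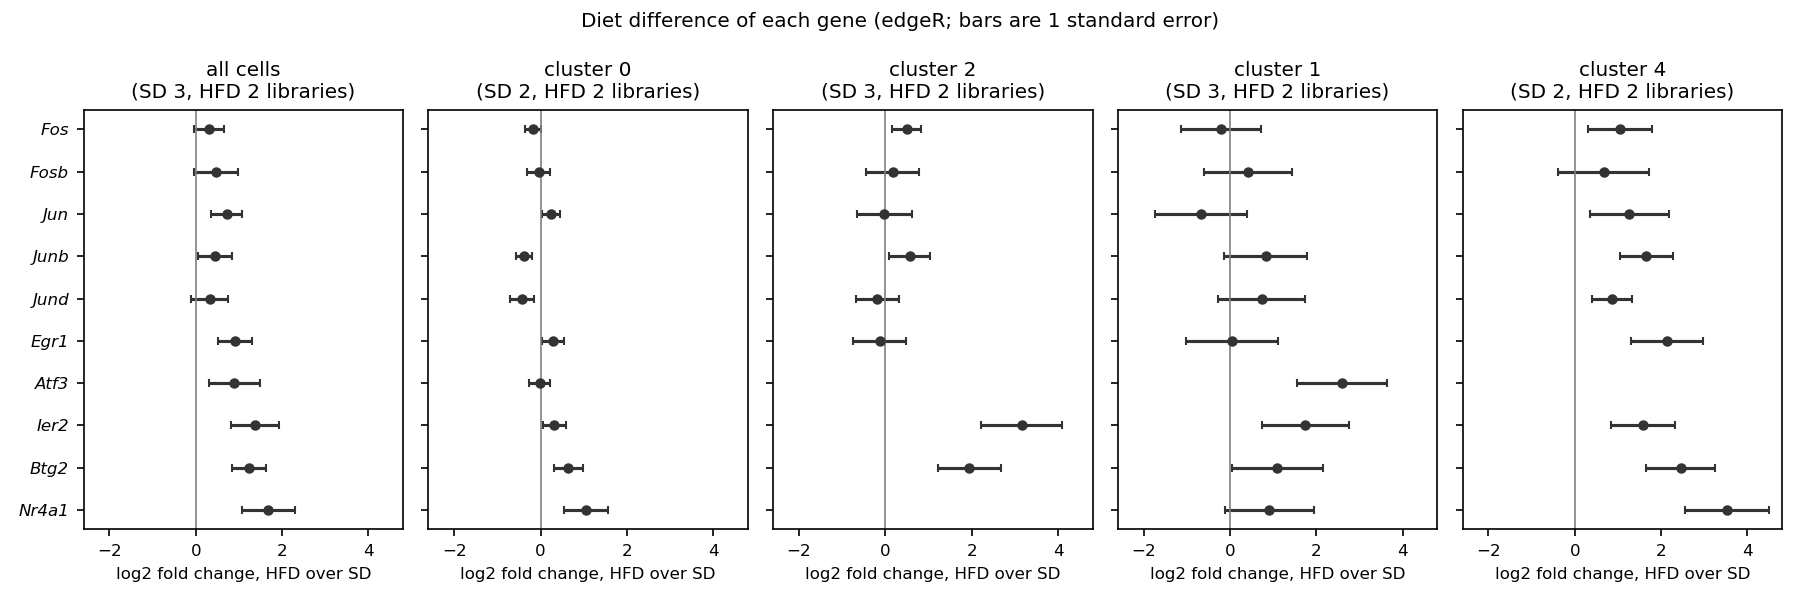
Log2 fold change of each gene, HFD over SD, over all cells and within clusters 0, 2, 1 and 4, with bars of 1 standard error from edgeR; a gene with no point was not tested in that fit. All 10 points lie above 0 over all cells, and in cluster 0 Nr4a1 lies farthest from 0, at 1.06.

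Within the macrophages of cluster 0, tested in the 2 SD and 2 HFD libraries with at least 10 of its cells, the diets were close. In HFD 5 members were higher and 5 lower (median log2 0.11, all genes 0.01), edgeR called 0 of 10 (0.0474% of 2108 genes), and 0 had an unadjusted p under 0.05 (6.07% of genes). On the scale of that fit, Jun and Nr4a1 were higher without overlap (19.8% of genes) and Fos and Junb lower without overlap (18.2%). The largest difference was that of Nr4a1, with a log2 fold change of 1.06 (standard error 0.51, adjusted p = 0.795), from 16 and 3 UMIs in SD and 35 and 34 in HFD.

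Ier2 and Btg2 differed most between diets in the Schwann cells of cluster 2. Their log2 fold changes were 3.16 (standard error 0.94) and 1.95 (standard error 0.73), each with an adjusted p of 1.00 in edgeR's quasi-likelihood test, which called 0 of 8 members tested and 0% of 1019 genes. Before adjustment these 2 had a p under 0.05 (1.57% of genes). All 17 Ier2 and all 35 Btg2 UMIs of HFD replicate 1 lay in 1 of its 3 cells of cluster 2, and without that library the log2 values were 1.51 and 0.04. Without HFD replicate 2, which leaves that library alone for HFD, both passed the adjusted threshold, as they did with the replicate number as a block (edgeR adjusted p = 0.0330 for each), although the numbers were not taken as pairs. Within run 2, which does not hold that library, both genes were lower in HFD (log2 −0.56 and −0.82). Fos was at 2947, 3065 and 2410.34 CPM in SD and at 4675 and 3649.89 in HFD, higher without overlap like Junb (9.42% of genes), while 0 members were lower without overlap (9.13% of genes), with a log2 fold change of 0.49 (standard error 0.34, edgeR adjusted p = 1.00).

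In cluster 4, the fibroblast-marked cells, all 9 members tested were higher in HFD (median log2 1.58, all genes −0.06), and 7 did not overlap on the scale of the fit (10.1% of 327 genes). With the run number as a term, Fosb and Jun turned lower in HFD (log2 −0.52 and −0.41). Both also turned without HFD replicate 2 (log2 −0.18 and −0.06), and Fosb without SD replicate 1 too (log2 −0.03). None passed edgeR's adjusted threshold (0% of genes called), and 3 had an unadjusted p under 0.05 (1.22% of genes): Junb, Btg2 and Nr4a1. Nr4a1 rested on 1 and 1 UMIs in SD and 24 and 17 in HFD, of which 18 and 16 lay in 1 cell each. By DESeq2 the count of members called was 0 too.

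In cluster 1, 0 of 10 members were called, although 7.93% of 656 genes were. Atf3 alone had an unadjusted p under 0.05 (22.3% of genes), with a log2 fold change of 2.59 (standard error 1.04, edgeR adjusted p = 0.101). Without SD replicate 1, 2 of 9 members tested (Atf3 and Ier2) passed the threshold, as did 99 of all 395 genes tested. Among the other immediate early genes 2 of 8 tested rose, Nfkbiz, an inhibitor-like regulator of NF-κB (log2 3.83, standard error 1.15, edgeR adjusted p = 0.0196), and Zfp36l1, a relative of Zfp36 (log2 3.47, standard error 1.18, edgeR adjusted p = 0.0431). Neutrophil markers moved with diet in this cluster, with 3 neutrophil-like cells and 1 haemoglobin-rich cell, all from HFD libraries, and without those cells 1 gene in all was called.

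Whether the diet difference was larger in 1 cluster than in another was tested for clusters 0 and 2 in 1 model. The edgeR interaction term called 0 of 2257 genes (0%), and 25 genes had a p under 0.05 before adjustment. DESeq2 called 0 as well. Every member had an adjusted p of 1.00, so no member was shown to differ in its diet response between macrophages and Schwann cells, and none was shown to respond alike.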

How the data were processed

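Single-cell RNA of O4-enriched sciatic nerve cells was measured with 10x Genomics 3′ v2 chemistry, per the labels' protocols. The submitters' processing notes name Cell Ranger 3.1.0 and the build mm10. Raw UMI counts per gene and cell were deposited, with each cell's library, cluster number and cluster name. The share of mitochondrial UMIs, in percent, is also in the deposited table (at most 4.97 in any cell). How cells were filtered and doublets treated before deposit is not given in the sources used here. Doublets were not called. Control libraries of the tables were taken as SD, because tables and labels each hold 2 diets and share HFD. The 10 genes, the gene lists and the tests were chosen with earlier results of these data known. All 10 members are named (some other genes that meet the rule are not reported here), and of other lists the genes past the threshold or up to 4 of lowest p or highest level.

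Counts were summed per library and per library and cluster, using sums of at least 3 cells for levels. Level ratios between clusters carry 1 added UMI, while libraries are counted as higher or lower by CPM with none added, and detection at 500 UMIs per cell is the hypergeometric expectation. Diet was tested on sums by the robust quasi-likelihood test of edgeR 4.0.16 (R 4.3.3; TMM, filterByExpr) and Benjamini-Hochberg adjustment over all genes. Libraries entered with 10 cells or more in cluster 0 and 3 or more in other clusters. CPM of the text use all UMIs, while overlap between diets was judged on the TMM-scaled CPM of each fit. Standard errors are the fold change over the square root of F and are approximate. Single values used the two-sided exact permutation test of scipy 1.17.1. Same-numbered libraries were not taken as pairs. Alternatives tried were DESeq2 1.42.0, RLE scaling, no filter, and the run number or the replicate number as a term. Other alternatives left out libraries, cells or cluster 3, thinned to 1000 UMIs or used a pseudocount of 50. Those using cells of at least 500 UMIs, and a crossed pairing, were added after seeing the data, as were the split of cluster 1 by markers, the estimate of carried macrophage RNA and the counts of cells by member share. The scripts were tested on simulated data. Gene positions are from GENCODE vM21, promoters from RefSeq (GRCm38.p6). Total counts per library were 37744 to 349450 UMIs. Intervals are exact 95% binomial intervals (confidence level 0.95).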

Additional observations from a re-analysis of the deposited data

Results flagged for a closer look

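In 4 of 40 groups of member levels (10 genes in clusters 0, 1, 2 and 4), the highest or lowest library stood far from the others by Dixon's criterion, which chance meets in about 1 in 20 groups. Egr1 in cluster 0 was at 1986 CPM in SD replicate 1, and the nearest of the other 4 libraries was at 3393. In cluster 2, Ier2 was at 1135 CPM in HFD replicate 1 (nearest 241) and Btg2 at 2338 (nearest 482), all from 1 of the 3 cells of that library. Jun in cluster 4 was at 4249.58 CPM in HFD replicate 2, with the nearest library at 1463. Its 126 UMIs lay in 5 of 7 cells, 54 of them in 1 cell.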

How the results depend on the processing

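Over all cells no alternative called a member, and the 10 members kept a higher level in HFD under all 13 alternatives run. The 80 alternative values of the cluster 0 to cluster 2 ratios stayed within 1 standard deviation of the values above. With 1 UMI added to each count, chosen after seeing the data, 1 member instead of 0 was lower in every library in cluster 0 than in cluster 1 (Nr4a1) and in cluster 2 than in cluster 1 (Atf3). Over all genes, those higher and lower in every library then numbered 257 and 166 instead of 397 and 65 for cluster 0 over 1, and 162 and 119 instead of 398 and 33 for cluster 2 over 1, and those lower in cluster 0 than in cluster 4 numbered 318 instead of 198. Genes called over all cells numbered 5, and 9 by DESeq2, 47 without a filter, 57 with the run as a term, 64 with the replicate block, 7 with cells of at least 500 UMIs, 0 without neutrophil-like and haemoglobin-rich cells, and 0 to 54 without a library (0 without SD replicate 1, 54 without HFD replicate 2). In cluster 0 the 1 called gene became 4 without a filter, 5 with the block and 2 to 26 without a library (26 without SD replicate 1, 17 without HFD replicate 1). In cluster 1 the 52 became 38 by DESeq2, 66 by RLE, 8 without a filter, 22 with the block, 39 with the run, 35 with deeper cells, 1 without neutrophil-like and haemoglobin-rich cells and 22 to 99 without a library (22 without SD replicate 2, 26 without HFD replicate 1, 99 without SD replicate 1). In cluster 2 the 0 became 2 without a filter, 2 with the block, 1 with the run and 0 to 4 without a library (4 without HFD replicate 2), and in cluster 4 it became 0 to 2 (2 without HFD replicate 2).

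Members called in cluster 2 were 2 (Ier2 and Btg2, each at an edgeR adjusted p of 0.0330) with the replicate block, and 0 to 2 without a library, 2 without HFD replicate 2. In cluster 1 they were 2 of 9 tested (Atf3 and Ier2) without SD replicate 1, where 99 of all 395 genes were called. They were 0 without SD replicate 2 and 0 without SD replicate 3. Same-numbered libraries correlated in their deviations at 0.28 and −0.09 over all cells and at −0.0952 to 0.0160 in clusters 0, 1 and 2. In cluster 4 the value was −0.35, and the crossed pairing called 0 genes. The block changed no other call of a member.

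Directions of some diet differences turned in some settings, and the cause was not tested. Without a filter, Fosb and Atf3 in cluster 0 were at log2 0.089 and 0.094, Fosb in cluster 2 at −0.043 and Egr1 in cluster 1 at −0.035. With the run as a term, Fosb was at 0.058 in cluster 0 and −0.52 in cluster 4, and Jun at −0.41 in cluster 4. With the replicate block, Fosb was at −0.29 in cluster 2 and −0.11 in cluster 1, and Egr1 at −0.47 in cluster 1. Without neutrophil-like and haemoglobin-rich cells, cluster 1 gave Fosb −0.074, Junb −0.17, Jund −0.023, Egr1 −0.71 and Btg2 −0.36, and with cells of at least 500 UMIs Fosb −0.030, Junb −0.021 and Egr1 −0.53. In the cluster by diet term, Fosb and Jund were at −0.31 and −0.095 with RLE and −0.37 and −0.11 with DESeq2, and Fos at 0.024 without a filter. Leaving out 1 library at a time gave, from lowest to highest, in cluster 0 Egr1 −0.012 to 0.68, Fosb −0.29 to 0.24, Jund −0.80 to 0.090 and Atf3 −0.25 to 0.19, in cluster 2 Jun −2.40 to 0.60, Fosb −0.52 to 0.62, Egr1 −1.28 to 0.30 and Jund −0.74 to 0.076, in cluster 1 Fosb −1.15 to 1.57 and Egr1 −0.90 to 0.70, in cluster 4 Fosb −0.18 to 2.74 and Jun −0.059 to 1.98, in the equal-weight mean Fosb −0.34 to 1.08, Junb −0.12 to 1.18 and Jund −0.31 to 0.19.

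At 1000 UMIs per cell the expected shares in cluster 0 were 79.6% for Fos, 56.0% for Fosb, 74.7% for Jun, 76.1% for Junb, 79.5% for Jund, 70.6% for Egr1, 56.8% for Atf3, 56.6% for Ier2 and 51.9% for Btg2, and 51.0% for Jund in cluster 2. Small sums limit clusters 1, 3 and 4, where a few cells hold most member UMIs.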
